A study of Homo sapiens with 6 samples.

Results

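The genes for mitochondrial ribosomal proteins were followed in the NCI-H292 line, which derives from a human lung carcinoma of epithelial origin. The group CT45A1 overexpression came from cells that stably carry CT45A1-Venus (CT45A1 is a cancer/testis antigen and Venus a fluorescent protein), and the group CT45A1 negative from cells stably transfected with the Venus vector. Each group had 3 replicates, each on 1 array of total RNA. The labels do not say whether replicates were separate cultures or whether the cells were a clone or a pool, so each p-value reflects array-to-array spread alone, and that spread may be technical. The genes were chosen by name, from the array's annotation, as probe sets whose single gene symbol is MRPL or MRPS followed by a number, without pseudogenes or antisense genes. This gave 140 probe sets for 75 genes, out of 54675 probe sets and 19775 named genes on the array. A further 4 probe sets annotated to an MRPL or MRPS gene together with another gene were left out.

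Mitochondria make a small set of respiratory chain subunits on ribosomes of their own, in the matrix. The RNA of those ribosomes is encoded in mitochondrial DNA, but all of their proteins are encoded in the nucleus, made in the cytosol and imported. The MRPL genes encode mainly proteins of the large subunit, which joins amino acids, and the MRPS genes mainly proteins of the small subunit, which reads the mRNA. Some of the proteins descend from bacterial ribosomal proteins and others were added in the mitochondrial lineage. Most of these genes are active in every cell type, and loss of many of them impairs oxidative phosphorylation.

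Values are MAS5 signals, a linear brightness per probe set, and differences are log2 signal in CT45A1 overexpression minus log2 signal in CT45A1 negative. CT45 probe sets, annotated to 9 CT45 genes, gave 445 to 700.1 on the overexpression arrays against 1.95 to 23.1 on the negative arrays at the brighter one. The median signal per array was 79.2 to 83.3 in the overexpression group and 72.6 to 75.6 in the negative group. For actin, the signal of the 3' probe set over that of the 5' one, which rises as RNA is degraded, was 1.42 to 1.55 on the overexpression arrays and 1.64 to 1.91 on the negative arrays. The epithelial markers EPCAM, CDH1, KRT8, KRT18, KRT19 and MUC1 were above the array median on all 6 arrays, with a summed signal of 54279 to 55724 in overexpression and 58535 to 62273 in negative, and KRT18 fell by 0.25 (limma adjusted p = 0.0383). Of 8 blood, endothelial and fibroblast markers with a probe set of their own, PTPRC, LYZ, COL1A2 and LUM were below the array median on every array, CD3E and DCN passed it on 2 and 1 arrays, and the endothelial genes PECAM1 and CDH5 passed it on 6. The summed signal of these 8 markers was 588 to 703 on the overexpression arrays and 401 to 497 on the negative arrays. The part of array median and marker sums in the differences was not tested, although values after centring each array on its median are given below. In a bulk sample, fewer cells expressing a gene and less RNA per cell cannot be told apart.

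All 75 genes had at least 1 probe set brighter than the array median on 3 or more arrays, which was required for testing, and 130 of the 140 probe sets met this condition. Each gene was represented by the brightest of its probe sets, by mean log2 signal over the arrays. The median of these mean log2 signals was 11.55, against 9.67 over all 11895 genes tested. Brightness depends on the probes as well as on the transcript, so it gives no order of abundance between genes.

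The mitochondrial ribosomal protein genes were mostly a little lower in CT45A1 overexpression, with 1 clear exception in MRPL32. The difference was below 0 for 58 of the 75 genes (77.3%) and above 0 for 17. Over all genes tested 48.3% lay below 0, and 58.9% among genes in the middle range of the family's brightness. Of the 75, 5 fell and 1 rose at a limma adjusted p under 0.05, and 69 did not pass. MRPL35, MRPL52, MRPL30, MRPL14 and MRPL36 fell by 0.28 to 0.38 on the log2 scale, and MRPL32 rose by 0.59. All 6 encode proteins of the large subunit. Over all genes tested, 3.84% passed, 1.89% higher and 1.95% lower, against 8% of the mitochondrial ribosomal protein genes, 1.33% higher and 6.67% lower. These shares are descriptions.

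**Figure D1:**
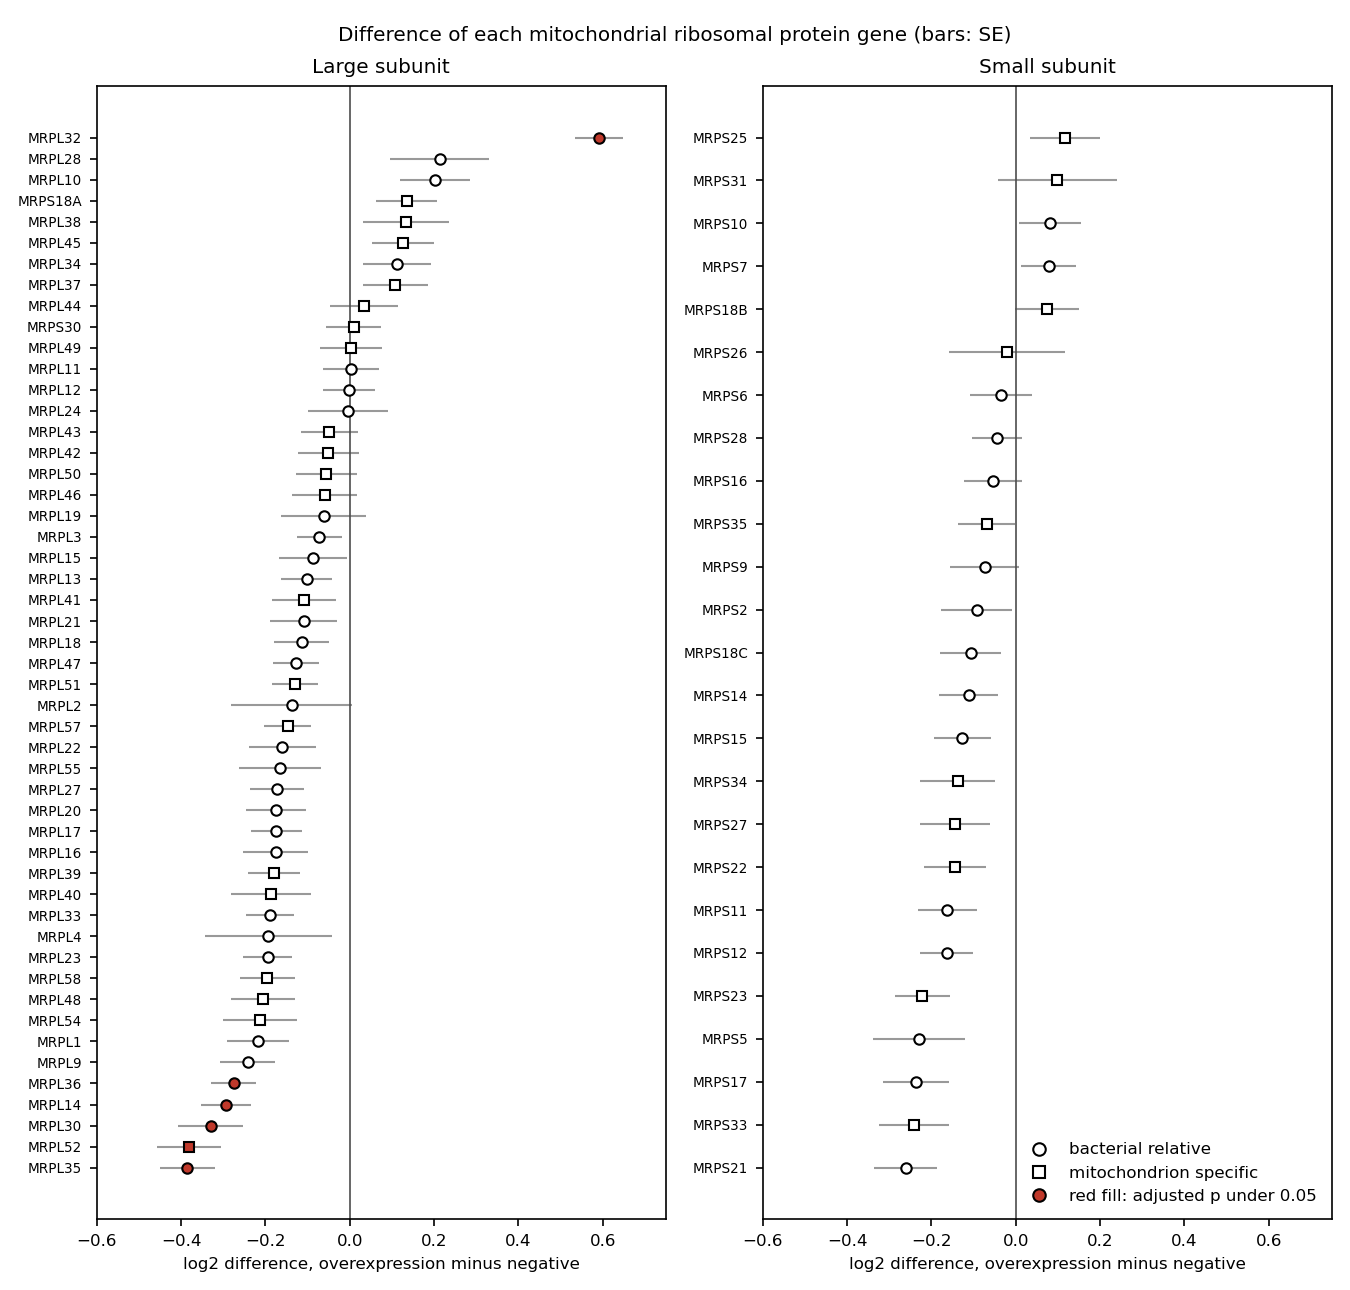
Log2 difference (horizontal axis, overexpression minus negative) of each of the 75 genes with limma's SE, split into the 50 large subunit and the 25 small subunit genes. Circles are proteins classed as having a bacterial relative and squares those classed as particular to mitochondria. The squares include MRPS18A and MRPS18B, paralogues of bacterial S18. Red symbols passed at an adjusted p under 0.05. MRPL32 lies at 0.59, apart from the others, and the 5 red symbols below 0 lie between -0.28 and -0.38.

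The median difference of the 75 genes was -0.11, with quartiles of -0.18 and -0.01, and the median over all genes was 0.0085. An unadjusted p under 0.05 was reached by 28 of the 75 (26 of them below 0), or 37.3%, against 21.2% of all genes. The difference was under 0.2 in size for 58 of the 75 and under 0.5 for 74. The 3 overexpression arrays all lay below the 3 negative arrays in 25 genes and all above in 4, so the groups did not overlap in 29 of 75, or 38.7%. Over all genes tested 27.2% did not overlap, with 13.8% all below and 13.4% all above. The mean log2 signal over the 75 genes was 11.35, 11.38 and 11.43 in the overexpression group, against 11.49, 11.45 and 11.48 in the negative group. Each overexpression array thus lay below each negative array, while the mean over all genes was 9.66 to 9.67 on the overexpression arrays and 9.62 to 9.64 on the negative arrays, in the opposite order.

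Of the 75 genes, 71 had the same direction under quantile normalization as with the deposited scaling, 72 under cyclic loess and 61 after array median centring, and none that turned passed. The number below 0 was 54, 55 and 72 in that order of settings. It was 47 with the actin ratio in the fit, where 13 genes turned. The actin ratio did not overlap between the groups, so that fit cannot tell it apart from CT45A1. Without _x_at and _s_at probe sets the number was 27 of the 42 genes left. With each array centred on its own median, 31 fell and 1 rose, while all genes shifted by a median of -0.14 and 161 rose and 1688 fell among them, against 225 and 232 as deposited. Under quantile normalization 3 fell and 1 rose, with a median of -0.079 against -0.0086 over all genes. Relative to the median of all genes, the median of the 75 lay lower by 0.120 as deposited and by 0.0703 after quantile normalization. After centring it was again 0.120, a value fixed in advance, since centring shifts all genes by the same amount.

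MRPL32, the relative of bacterial L32, carries a presequence that, in yeast and mouse, the m-AAA protease of the inner membrane removes before the protein joins the large subunit. Its signal was 8741, 8305 and 8826 on the overexpression arrays, against 5869, 5582 and 5719 on the negative arrays. The lowest overexpression array lay far above the highest negative array, and the spread within each group was small. The log2 means were 13.07 ± 0.05 in overexpression and 12.48 ± 0.04 in negative (SD, n = 3 each), a rise of 0.59 (SE 0.06, limma adjusted p = 0.00102), or 1.51-fold. This was the smallest p of the 75 genes. MRPL32 passed in each of the 18 alternative settings in which it was tested, with a difference between 0.45 and 0.66. Its only probe set ends in _s_at, a suffix for probe sets that can match several transcripts, so it could not be tested without such probe sets. RefSeq lists 2 pseudogenes under the MRPL32 name, and signal from them could not be told apart.

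MRPL35, the relative of bacterial L35, had signals of 1874, 1923 and 1958 in overexpression, against 2521, 2412 and 2582 in negative. All overexpression arrays lay below all negative arrays, and the difference was -0.38 (SE 0.07, limma adjusted p = 0.0161). Its 2 dimmer probe sets lay slightly above 0, at 0.07 (SE 0.11) and 0.08 (SE 0.24), so the decrease rests on the brightest one, which ends in _x_at. The mean of its probe sets differed by -0.08 (adjusted p = 0.668). RefSeq lists 4 MRPL35 pseudogenes.

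MRPL52 encodes a large subunit protein that bacteria lack. It gave signals of 2608, 2690 and 2937 in overexpression, against 3606, 3795 and 3326 in negative. It fell by 0.38 (SE 0.08, limma adjusted p = 0.0273), and its dimmer probe set differed by -0.44 (SE 0.19, adjusted p = 0.214 over probe sets). Both MRPL52 probe sets, which end in _s_at, therefore pointed the same way.

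MRPL14, the relative of bacterial L14, binds the assembly factor MALSU1 on the maturing large subunit. Its signals were 3452, 3538 and 3528 in overexpression, against 4427, 4291 and 4179 in negative, with no overlap and the narrowest overexpression spread of the 6 genes that passed (log2 SD 0.02). The decrease was 0.29 (SE 0.06, limma adjusted p = 0.0279). The only MRPL14 probe set ends in _s_at, so the gene could not be tested without such probe sets, and RefSeq lists 1 MRPL14 pseudogene. MALSU1 itself differed by -0.16 (SE 0.06, adjusted p = 0.135).

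MRPL36, the relative of the small bacterial protein L36, had 1 of the 3 brightest probe sets of the 75 genes. Signals were 10820, 11043 and 11419 in overexpression, against 13423, 13037 and 13827 in negative. It fell by 0.28 (SE 0.05, limma adjusted p = 0.0251), the smallest of the 5 decreases that passed. Its only probe set ends in _s_at, so it could not be tested without such probe sets, and RefSeq lists 1 MRPL36 pseudogene.

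MRPL30, the relative of bacterial L30, had signals of 2566, 2910 and 2557 in overexpression, against 3579, 3356 and 3156 in negative. The groups did not overlap, and overexpression replicate 2 came nearest to the negative arrays. It fell by 0.33 (SE 0.08), close to the threshold (limma adjusted p = 0.0486). Its 4 other probe sets differed by -0.19, -0.10, -0.10 and 0.13, and the mean of all 5 by -0.12 (adjusted p = 0.412).

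The 5 decreases passed in 6 to 12 of their 18 or 19 alternatives each, and MRPL32 in 18 of 18. None of the 5 passed in limma without overexpression replicate 1, overexpression replicate 2 or negative replicate 1, without a variance trend, or with the actin ratio in the fit, and MRPL32 was then the 1 gene that passed. Over all alternatives MRPL52 lay between -0.53 and -0.34, MRPL14 between -0.44 and -0.25, MRPL36 between -0.42 and -0.18 and MRPL30 between -0.47 and -0.12, while MRPL35 turned to 0.08 without _x_at and _s_at probe sets. With the actin ratio the median over the 75 genes was -0.065, and MRPL32 differed by 0.61 (adjusted p = 0.00804). Under quantile normalization MRPL36 and MRPL30 no longer passed (adjusted p = 0.0717 and 0.0685).

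**Figure D2:**
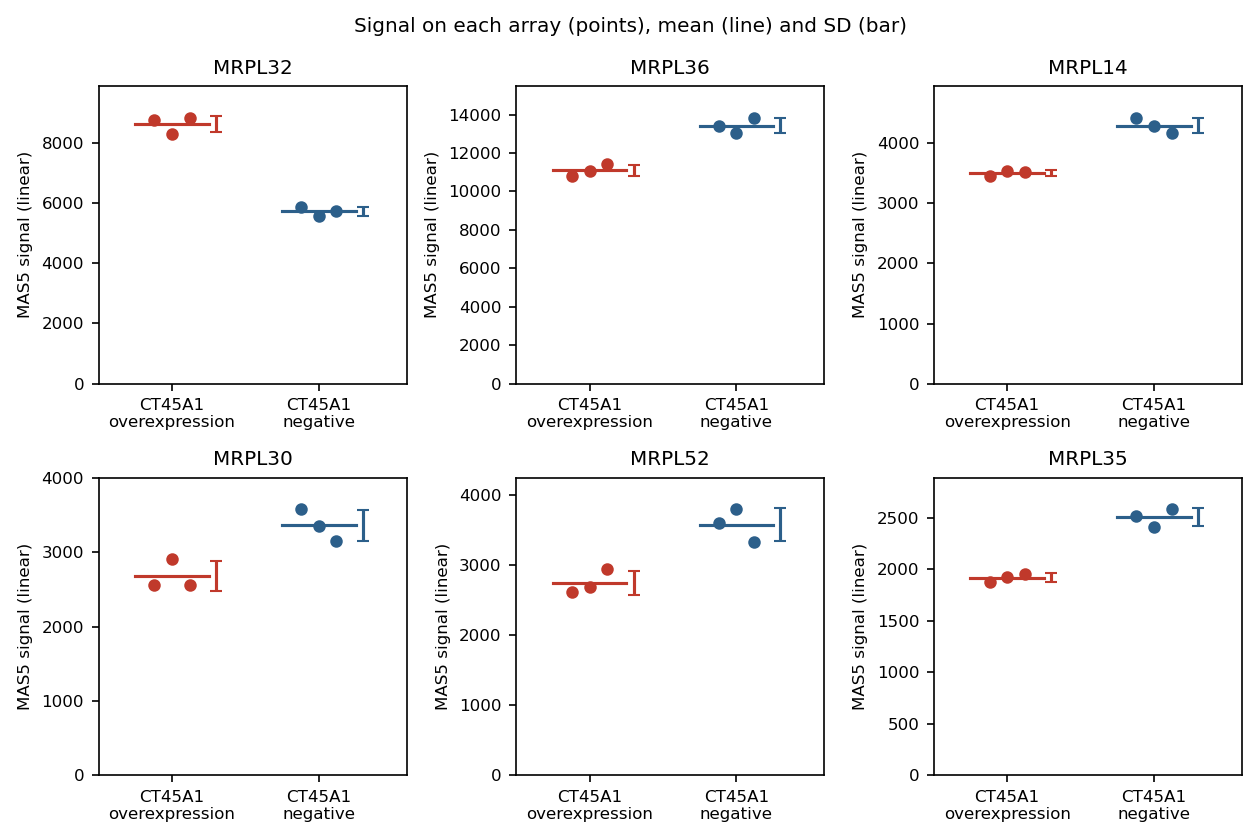
MAS5 signal (vertical axis, linear scale from 0) on each array for the 6 genes that passed, with the mean as a line and the SD as a bar, overexpression in red and negative in blue. No gene shows an overlap between groups. MRPL32 is the only one of the 6 with the overexpression arrays on top.

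Promoter sequences of 5 of the 6 genes that passed are shown so that the 1 that rose can be read beside 4 that fell. MRPL35 is not among them. The sequences are from RefSeq (GRCh38.p14) and cover the 250 bases before the annotated start, read 5′ to 3′ on the gene's own strand. Capitals mark matches, on either strand and overlaps kept, to the NRF1 core GCGCANGCG, the ETS motif CCGGAAG or the YY1 core AAGATGGCG. NRF1, the ETS factor GABP and YY1 are known activators of nuclear genes for mitochondrial proteins. MRPL32 lies at chr7:42932126-42932375 on the plus strand, MRPL36 at chr5:1799838-1800087 on the minus strand, MRPL52 at chr14:22829637-22829886 on the plus strand, MRPL14 at chr6:44127309-44127558 on the minus strand, and MRPL30 at chr2:99180934-99181183 on the plus strand.
MRPL32: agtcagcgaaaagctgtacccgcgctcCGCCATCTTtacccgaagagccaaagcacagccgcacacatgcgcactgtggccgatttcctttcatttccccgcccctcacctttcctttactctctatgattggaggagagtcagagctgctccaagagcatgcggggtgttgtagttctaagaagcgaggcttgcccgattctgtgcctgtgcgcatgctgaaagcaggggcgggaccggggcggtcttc
MRPL36: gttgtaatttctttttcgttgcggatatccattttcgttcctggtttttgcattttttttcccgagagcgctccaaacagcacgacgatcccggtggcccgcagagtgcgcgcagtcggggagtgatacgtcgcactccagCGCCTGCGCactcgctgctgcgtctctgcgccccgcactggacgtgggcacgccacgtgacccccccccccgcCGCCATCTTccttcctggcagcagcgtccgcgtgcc
MRPL52: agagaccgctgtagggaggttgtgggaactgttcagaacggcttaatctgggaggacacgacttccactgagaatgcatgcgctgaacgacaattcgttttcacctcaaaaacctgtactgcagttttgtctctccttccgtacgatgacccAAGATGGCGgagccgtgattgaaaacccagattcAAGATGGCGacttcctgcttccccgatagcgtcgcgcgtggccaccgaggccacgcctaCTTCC
MRPL14: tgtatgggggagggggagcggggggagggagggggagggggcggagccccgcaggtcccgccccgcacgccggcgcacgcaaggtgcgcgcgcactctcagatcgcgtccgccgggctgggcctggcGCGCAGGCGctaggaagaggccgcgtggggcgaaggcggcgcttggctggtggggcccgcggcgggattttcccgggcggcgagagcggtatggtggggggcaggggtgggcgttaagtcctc
MRPL30: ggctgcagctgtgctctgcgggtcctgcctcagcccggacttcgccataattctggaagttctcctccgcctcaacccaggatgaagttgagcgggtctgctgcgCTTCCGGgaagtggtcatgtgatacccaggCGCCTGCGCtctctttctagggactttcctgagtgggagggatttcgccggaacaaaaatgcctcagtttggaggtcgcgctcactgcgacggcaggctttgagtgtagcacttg
The stretch before the MRPL32 start held 1 match, to the YY1 core, the one before MRPL36 held 2, before MRPL52 3, before MRPL14 1 and before MRPL30 2. The last match before MRPL52, an ETS motif, runs across the start. MRPL32, which rose, and MRPL36 and MRPL52, which fell, all had a YY1 core. MRPL14 and MRPL30, which fell, had none in the full window.

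Promoters of 67 of the 75 genes were in the table. Over the full window, from 250 bases before to 50 after the start, the ETS motif was in 28 of them (41.8%), against 19.7% of the 9718 promoters of genes tested and 10.7% of all 27305 promoters. The YY1 core was in 12 (17.9%), against 3.98% and 1.85%. The NRF1 core was in 13 (19.4%), against 14.9% and 8.05%. A match is a description and does not show that a factor binds. The median difference was -0.15 in the 28 genes with an ETS motif and -0.07 in the 39 without. It was -0.02 in the 12 with a YY1 core and -0.13 in the 55 without, and -0.16 in the 13 with an NRF1 core and -0.11 in the 54 without. These medians were not tested.

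Some start sites of this family lie close to that of another gene. Within 1000 bases of the start of 27 of the 67 genes with a promoter lay the start of 28 genes on the opposite strand. This comparison was added after the data were seen, and the share among other genes was not counted. Of the pairs, 21 had a tested neighbour, and 10 of these 21 lay on the same side of 0. MRPL46 and MRPS11 are neighbours of each other and form 2 of the pairs. The neighbours had a median difference of -0.01, against -0.14 for the mitochondrial ribosomal protein genes in the same pairs. PSMA2, a proteasome subunit whose start lies 202 bases from that of MRPL32, differed by -0.05 (SE 0.07, adjusted p = 0.749), with log2 means of 13.60 in overexpression and 13.64 in negative. MITD1, 126 bases from MRPL30, differed by -0.04 (SE 0.09, adjusted p = 0.843). Of the 21 tested neighbours, 2 passed, while 3.84% of all genes tested did. HIRA, a histone chaperone next to MRPL40, fell by 0.95 (SE 0.14, adjusted p = 0.00727), while MRPL40 itself differed by -0.19 (SE 0.10, adjusted p = 0.290). PPP1R10, a phosphatase regulator next to MRPS18B, rose by 0.63 (SE 0.11, adjusted p = 0.0175), while MRPS18B differed by 0.07 (SE 0.08, adjusted p = 0.608).

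By subunit, the 50 large subunit genes had a median of -0.12 and the 25 small subunit genes one of -0.11. Of the large subunit genes 38 lay below 0 and 6 passed, and of the small subunit genes 20 lay below 0 and none passed in limma. In shares, 76% and 80% lay below 0, against 48.3% of all genes tested. At the threshold 12% and 0% passed, against 3.84% of all genes. An unadjusted p under 0.05 was reached by 22 large subunit genes (44%) and by 6 small subunit genes (24%), the small subunit share being near the 21.2% of all genes. MRPS30 and MRPS18A, which belong to the large subunit despite their names, were counted there. The mean log2 signal of small subunit genes was 11.25, 11.27 and 11.38 in overexpression, against 11.40, 11.37 and 11.40 in negative, so overexpression replicate 3 overlapped with the negative arrays. Large subunit means were 11.39, 11.43 and 11.45 in overexpression and 11.53, 11.49 and 11.52 in negative, without overlap. Whether the subunits differ was not tested.

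By origin, 38 of the 45 genes classed as having a bacterial relative lay below 0, with a median of -0.13, 4 decreases and 1 increase that passed. Of the 30 genes classed as particular to mitochondria, 20 lay below 0, with a median of -0.06, and MRPL52 was the 1 that passed. MRPS18A and MRPS18B were counted in this class although they are paralogues of bacterial S18, and both lay above 0. The counts and medians of both classes depend on where these genes are placed. In shares, 84.4% of the first class and 66.7% of the second lay below 0, against 48.3% of all genes tested. At the threshold 11.1% and 3.33% passed, against 3.84% of all genes, so the second class was near that share. The difference between these classes was not tested.

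At the stalk, where translation factors dock, 3 genes were looked up after the values were seen. MRPL12, the stalk protein, had signals of 2932, 2958 and 3055 in overexpression, against 2956, 2928 and 3069 in negative, a difference of -0.0011 (SE 0.06, adjusted p = 0.994), and its dimmer probe set differed by -0.20 (SE 0.26). MRPL11, at the stalk base, differed by 0.0033 (SE 0.07, adjusted p = 0.985). MRPL10, which anchors MRPL12, had signals of 1876, 1963 and 2121 in overexpression, against 1754, 1582 and 1847 in negative. Its groups did not overlap, and the difference was 0.20 (SE 0.08, adjusted p = 0.203), which did not pass.

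Of the genes looked up around the exit tunnel, through which new proteins leave, values lay on both sides of 0. MRPL23 was named for its small p, and the others were chosen after their values were seen. The choice may not hold every protein there. MRPL23 had signals of 5798, 5833 and 6264 in overexpression, against 6697, 6863 and 6902 in negative, and differed by -0.19 (SE 0.06, adjusted p = 0.103). MRPL22 and MRPL47 differed by -0.16 and -0.13 (adjusted p = 0.278 and 0.216), both without overlap. MRPL24 differed by -0.0041 (SE 0.09) and MRPL44 by 0.03 (SE 0.08). MRPL45, which helps to attach the ribosome to the inner membrane, differed by 0.13 (SE 0.07, adjusted p = 0.352), with 1332, 1438 and 1342 in overexpression against 1234, 1287 and 1245 in negative. MRPL45 lay below 0 after array median centring, and MRPL22 above 0 with the actin ratio. None of these passed.

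Other large subunit genes with small p-values lay below 0 and did not pass. MRPL9 had 3593, 3593 and 3400 in overexpression against 4408, 4158 and 3958 in negative, a difference of -0.24 (SE 0.07, adjusted p = 0.0767). MRPL9 passed in 2 alternatives, after array median centring and without negative replicate 3. The other MRPL9 probe set differed by -0.06 (SE 0.08, limma adjusted p = 0.713 over probe sets), and its groups overlapped. MRPL33, MRPL1 and MRPL27, relatives of bacterial proteins, differed by -0.19, -0.22 and -0.17, and MRPL17 by -0.17 (adjusted p = 0.108, 0.134, 0.166 and 0.141). MRPL58, a peptidyl-tRNA hydrolase built into the large subunit that releases chains from stalled ribosomes, differed by -0.20 (SE 0.07, adjusted p = 0.134). Its signals were 2049, 2125 and 2172 in overexpression and 2400, 2355 and 2511 in negative. MRPL39, MRPL48 and MRPL57, all particular to mitochondria, differed by -0.18, -0.20 and -0.15 (adjusted p = 0.136, 0.162 and 0.169). MRPL39 lay above 0 with the mean of its probe sets or without those ending in _x_at or _s_at. The further MRPL57 probe sets lay at -0.44 (SE 0.15), -0.15 (SE 0.08) and 0.27 (SE 0.13). RefSeq lists 8 MRPL57 pseudogenes. At their brightest probe sets, all 8 genes named after MRPL9 had their overexpression arrays below their negative ones. These genes were picked for small p-values, which largely fixes this in advance. Over all genes tested 13.8% lay all below.

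Members at the ends of the brightness range did not pass, apart from MRPL36. MRPL3, the brightest, differed by -0.07 (SE 0.05, adjusted p = 0.460) and MRPL51 by -0.13 (SE 0.05, adjusted p = 0.214). The dimmest were MRPL2, MRPL38 and MRPL55, which differed by -0.14 (SE 0.14), 0.13 (SE 0.10) and -0.17 (SE 0.10), with adjusted p of 0.622, 0.483 and 0.351. MRPL3 lay just above 0 under quantile normalization and cyclic loess, MRPL2 just above 0 with the actin ratio or the mean of its probe sets, and MRPL38 just below 0 after centring.

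In the small subunit the lowest p belonged to MRPS21, a relative of bacterial S21. Its signals were 2963, 3201 and 3165 in overexpression, against 3650, 3480 and 4071 in negative, a difference of -0.26 (SE 0.07, adjusted p = 0.0926). MRPS23, particular to mitochondria, had 2957, 3070 and 2980 in overexpression against 3731, 3414 and 3366 in negative, a difference of -0.22 (SE 0.07, adjusted p = 0.103). Both genes had groups that did not overlap. The only MRPS21 probe set ends in _s_at, RefSeq lists 9 MRPS21 pseudogenes, and its limma adjusted p was 0.877 with the actin ratio. The other MRPS23 probe set lay at 0.15 (SE 0.28), and the mean of both differed by -0.04 (adjusted p = 0.873). MRPS17 and MRPS33 differed by -0.24 each (SE 0.08 each, adjusted p = 0.127 and 0.137), and overexpression replicate 3 was their highest overexpression array. MRPS12, at the decoding centre, differed by -0.16 (SE 0.06, adjusted p = 0.176). MRPS5, near the mRNA entry channel, differed by -0.23 (SE 0.11, adjusted p = 0.262) and its groups overlapped. MRPS5 lay above 0 with the actin ratio, with the mean of its probe sets and without _x_at and _s_at probe sets. The 3 paralogues of bacterial S18 gave 0.14 for MRPS18A in the large subunit, 0.07 for MRPS18B and -0.11 for MRPS18C at their brightest probe sets, and none passed. The other probe set of MRPS18A lay at -0.13 (SE 0.10) and that of MRPS18B at -0.0007 (SE 0.08), and both genes lay below 0 after array median centring.

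Many genes had further probe sets, which pointed both ways. Of the 75 genes, 31 had 2 or more tested probe sets, with all on the same side of 0 in 9 of the 31 and on both sides in 22. The 55 probe sets that did not represent a gene had a median difference of -0.02, with 30 below 0 and 25 above, and none passed. In size, regardless of sign, the median was 0.13 for these 55 and 0.13 for the 75 brightest ones, with 12 of the 55 and 7 of the 75 above 0.25. Over all 130 tested probe sets of the family, 88 (67.7%) lay below 0, against 44.5% of all 27618 probe sets tested. Of the 130, 5 passed (3.85%), against 3.23% of all. These 5 were among the 78 whose names end in _s_at or _x_at, and none of the other 52 passed, 10 of them (19.2%) having an unadjusted p under 0.05, against 20.7% of all probe sets. MRPL30, which passed among genes, had an adjusted p of 0.0541 among probe sets. The largest difference among the further probe sets was at MRPS15, a relative of bacterial S15, with -0.58 (SE 0.16, adjusted p = 0.0769) against -0.13 at its brightest one. MRPL43 had 0.29 (SE 0.07, adjusted p = 0.0591) at 1 probe set and -0.05 at its brightest, and both were chosen after their values were seen. The 4 MRPS22 probe sets were alike, at -0.09 to -0.14. The 10 probe sets left out for low signal belonged to MRPL20, MRPL23, MRPL41, MRPL50, MRPL55, MRPS18C, MRPS26 and MRPS27, all with another probe set that was tested.

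**Figure D3:**
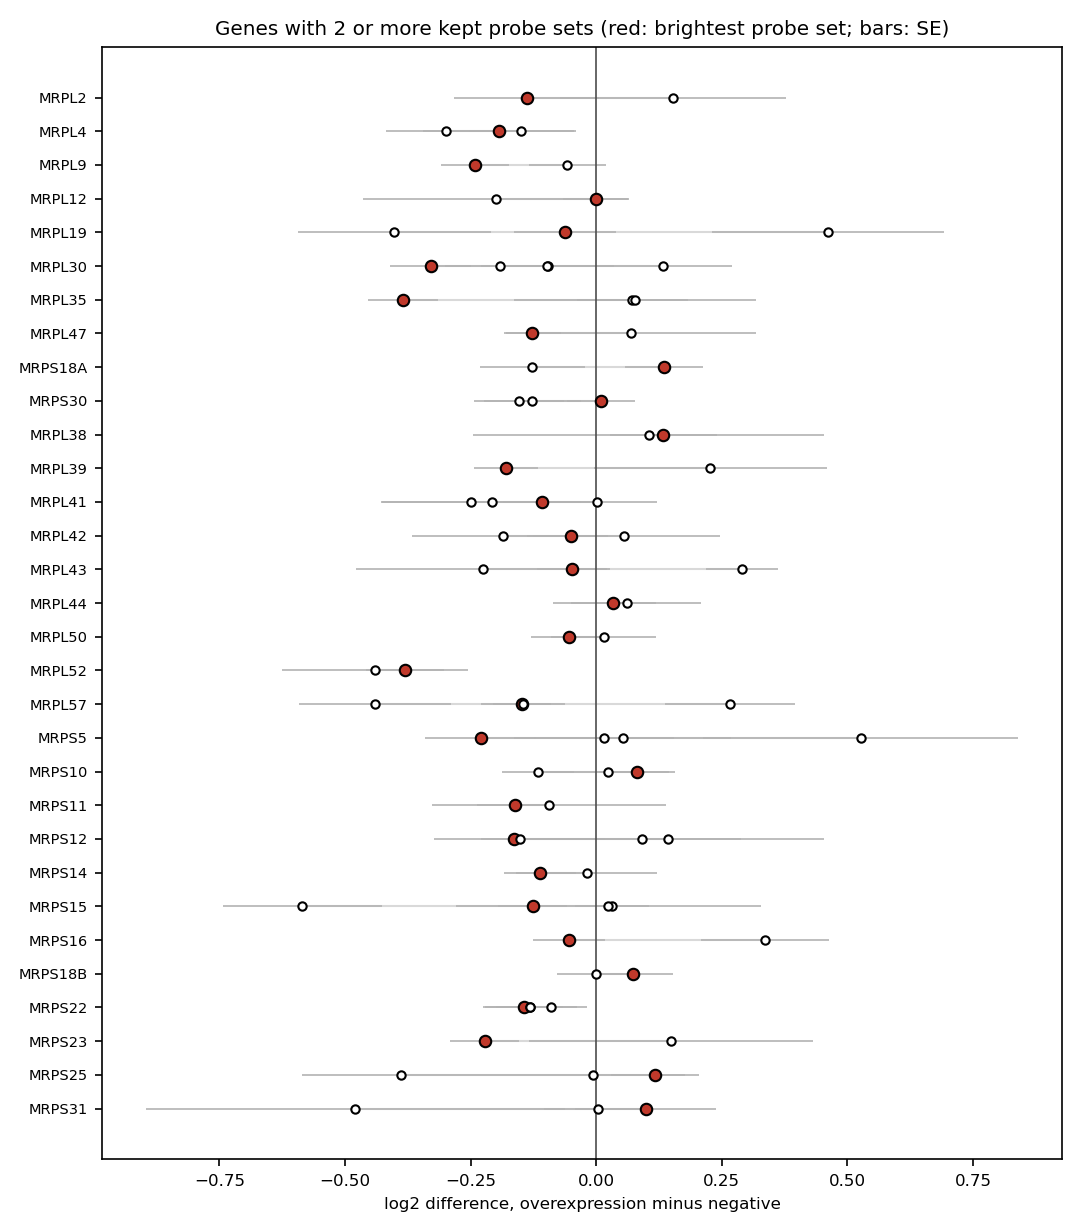
Log2 difference (horizontal axis, overexpression minus negative) with limma's SE for every tested probe set of the 31 genes with 2 or more, the brightest in red and the others in white. Red points lie below 0 for most genes, while white points lie on both sides, with 30 below and 25 above. MRPL35 shows its brightest probe set at -0.38 and both others just above 0.

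Brighter genes lay lower over the array as a whole. Spearman's correlation of difference with mean log2 signal was -0.25 across the 11895 genes and -0.27 across the 75, given as a description, since genes on 1 array share its scaling and are not independent. Among the 3444 genes of all kinds within the middle range of the family's brightness (10th to 90th percentile), the median difference was -0.03. Of these genes 58.9% lay below 0, 5.02% passed and 19.9% had their overexpression arrays all below the negative ones. The corresponding values in the 75 genes were -0.11, 77.3%, 8% and 33.3%.

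Cytosolic ribosomal protein genes, with brighter probe sets still, all lay below 0 as deposited. All 52 tested, of 79 listed, were below 0, with a median of -0.17, and in 37 of the 52 the overexpression arrays lay below the negative ones. Over all genes 13.8% lay all below. None of the 52 passed in limma, and 33 (63.5%) had an unadjusted p under 0.05, against 21.2% of all genes. RPS23, FAU and RPL24 differed by -0.26, -0.22 and -0.19 (adjusted p = 0.0514, 0.0615 and 0.0727). The range over the 52 was -0.29 to -0.02. This list depended on scaling, with a median of -0.03 and 41 of 52 below 0 under quantile normalization, a median of -0.03 and 38 of 52 below 0 under cyclic loess, and a median of -0.31 with 48 decreases that passed after array median centring.

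**Figure D4:**
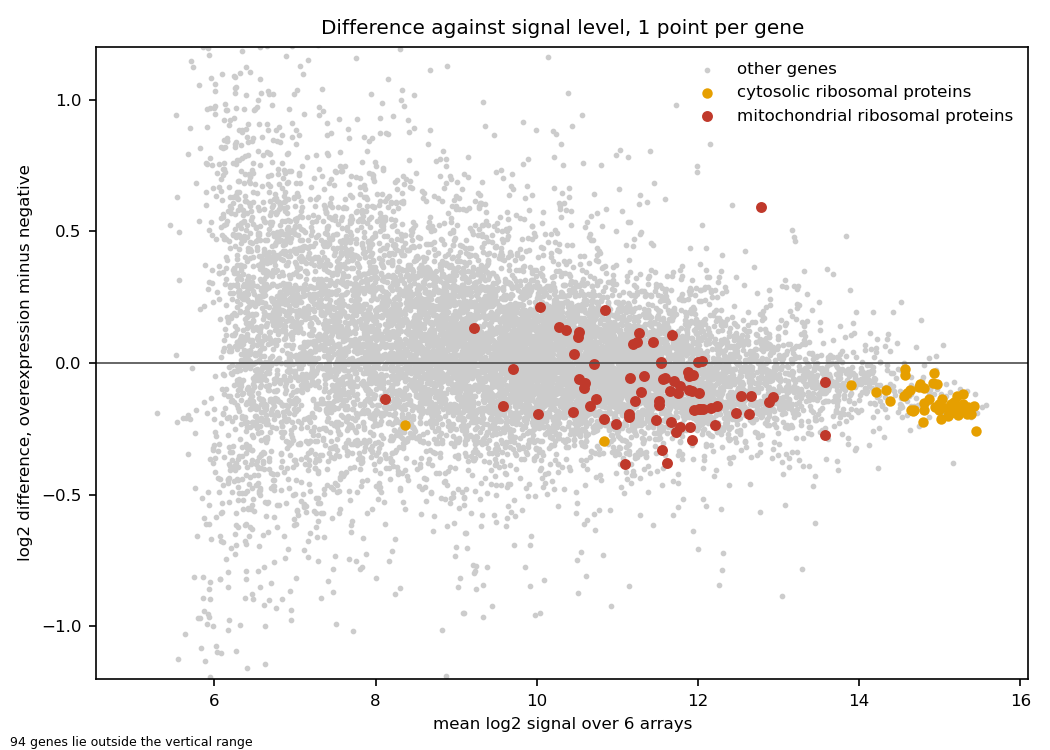
Log2 difference (vertical axis, overexpression minus negative) against mean log2 signal (horizontal axis) for 11895 genes, with mitochondrial ribosomal proteins in red, cytosolic ribosomal proteins in orange and other genes in grey. Most red points lie between 10 and 13 and just below 0, MRPL32 lies at 0.59, and the orange points lie below 0 as deposited. A vertical limit of 1.2 leaves 94 genes outside.

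Proteins of the mitochondrial ribosome with other names lay close to the family. Their list also held OXA1L, which is not a ribosomal protein. Of 5 tested, the 4 ribosomal proteins were below 0 and OXA1L above. The median of all 5 was -0.09, and none passed. DAP3, a GTP-binding small subunit protein, had 3859, 4284 and 4471 in overexpression against 4586, 4450 and 4386 in negative, a difference of -0.09 (SE 0.07, adjusted p = 0.475). CHCHD1 and PTCD3, also small subunit proteins, differed by -0.18 and -0.06, and GADD45GIP1 of the large subunit by -0.09. OXA1L, which inserts the new proteins into the inner membrane, differed by 0.16 (SE 0.06, adjusted p = 0.162), with its overexpression arrays on top.

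Of 14 genes for mitochondrial translation factors and mRNA-binding proteins, 7 lay below 0 and 7 above, and none passed. An unadjusted p under 0.05 was reached by 7 of the 14, against 21.2% of all genes. TSFM, the elongation factor that acts as exchange factor, had 1713, 1985 and 1625 in overexpression against 1427, 1339 and 1411 in negative, a difference of 0.35 (SE 0.09, adjusted p = 0.0651). GFM1, the elongation factor that moves the ribosome along the mRNA, had 2901, 2664 and 3052 in overexpression against 3541, 3356 and 3452 in negative, a difference of -0.27 (SE 0.07, adjusted p = 0.0711). TUFM, which brings tRNA to the ribosome, differed by -0.18 (SE 0.06, adjusted p = 0.136). SLIRP, which stabilises mitochondrial mRNA, differed by -0.27 (SE 0.07, adjusted p = 0.0681), while its partner LRPPRC differed by 0.0069 (SE 0.06).

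Assembly and mitochondrial DNA expression genes lay on both sides of 0. Of 25 assembly and ribosomal RNA maturation genes, 12 lay below 0 and 13 above, none passed and 6 (24%) had an unadjusted p under 0.05, near the 21.2% of all genes. MTG2 and MTG1, GTPases of large subunit assembly, differed by 0.43 and 0.40 (SE 0.14 and 0.13, adjusted p = 0.126 and 0.127). Of 19 genes for mitochondrial DNA replication, transcription and RNA processing, 6 lay below 0 and 13 above, and POLG alone passed. POLG, the catalytic subunit of the mitochondrial DNA polymerase, had 831, 815 and 662 in overexpression against 512, 544 and 539 in negative, a rise of 0.53 (SE 0.11, adjusted p = 0.0343). SSBP1, which binds single-stranded mitochondrial DNA, differed by -0.22 (SE 0.05, adjusted p = 0.0512). POLRMT, the RNA polymerase, differed by 0.33 (SE 0.14, adjusted p = 0.227) and the transcription factor TFAM by 0.0037 (SE 0.07). Of 18 mitochondrial tRNA synthetase and amidotransferase genes, none passed and 2 (11.1%) had an unadjusted p under 0.05, YARS2 at -0.26 and SARS2 at 0.29.

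**Figure D5:**
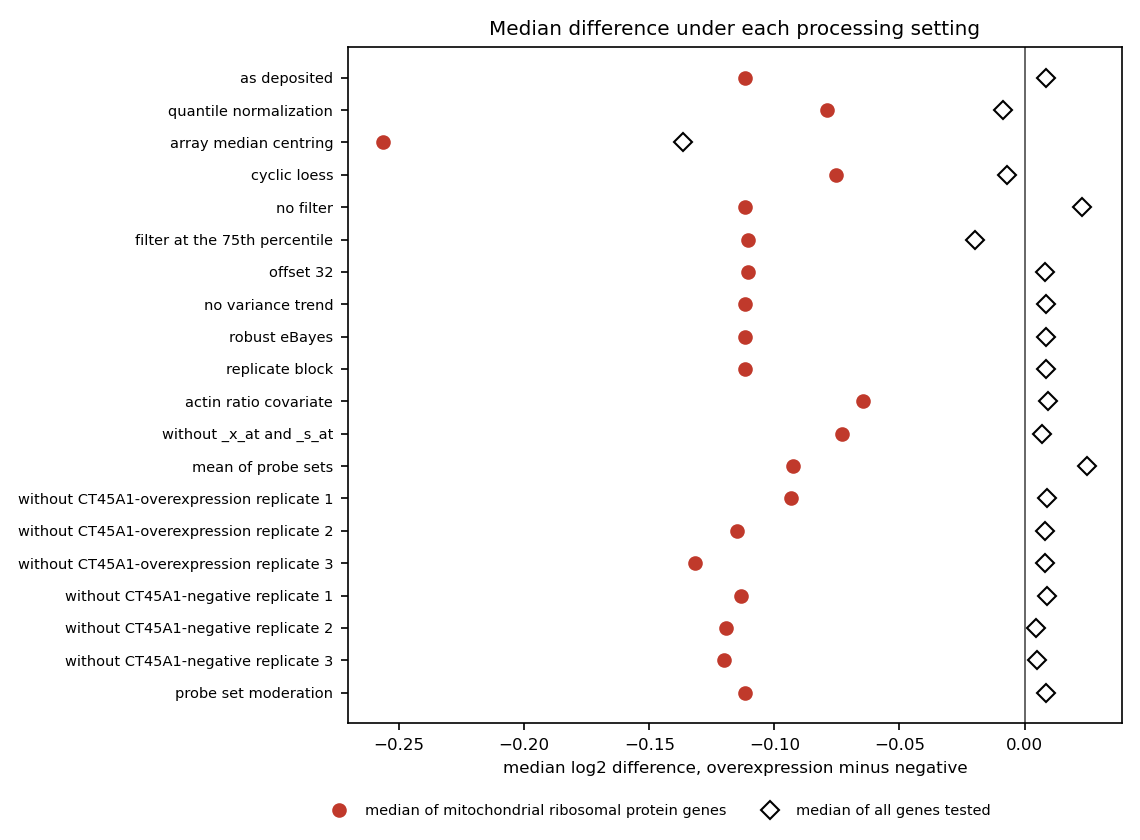
Median log2 difference (horizontal axis, overexpression minus negative) of the mitochondrial ribosomal protein genes (red circles) and of all genes tested (open diamonds) under each processing setting (rows). The red circle lies left of the diamond in every row, at -0.11 and 0.0085 as deposited. Both shift left by the same amount after array median centring, to -0.26 and -0.14, so their gap is fixed there. Rows that change only variance moderation or add the replicate block repeat the deposited medians.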

How the data were processed

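Total RNA of 3 CT45A1 overexpression and 3 CT45A1 negative replicates was hybridised to 1 array each, with groups and replicate numbers taken from the sample titles. The authors deposited 1 MAS5 signal, an intensity on a linear scale, for each probe set and array. MAS5 and affy are named in the submitters' processing notes; versions are not given in the sources used here. All arrays had a trimmed mean of 500.1, a common scaling. The 62 control probe sets were left out, and log2 was taken with no offset added. Probe sets brighter than the array median on at least 3 of 6 arrays were tested with limma 3.58.1 in R 4.3.3 (lmFit, 1 mean for each group; eBayes, trend on; two-sided; Benjamini-Hochberg over all 27618 probe sets). A second fit over 11895 genes, each represented by its brightest tested probe set, gave the gene values, at a threshold of 0.05. Symbols were updated through Entrez identifiers in RefSeq (GRCh38.p14), which held all 140 probe sets of the family.

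Members and lists were chosen with earlier results of these data known. Genes named were all members that passed, filled up by smallest p to 20, the 3 brightest, the 3 dimmest, those whose probe sets disagreed, and those of smallest p from each related list; genes that stand for a role or neighbour a member's start were added after their values were seen. The fit was tested on simulated data with 200 changed genes. It recovered 51% of 1.3-fold and 89.7% of 2-fold changes, with 8 false calls among 145. Genes that did not pass can therefore not be read as unchanged. No 2 arrays held identical values, and correlations between arrays were 0.920 to 0.930. Alternatives covered normalization, the filter, an offset, variance moderation, the actin ratio, the replicate block, the choice of probe sets and leaving out each array. The number of arrays limits the precision. Python 3.11.15, pandas 2.3.3 and matplotlib 3.10.9 were also used.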

Additional observations from a re-analysis of the deposited data

How the results depend on the processing

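MRPL32 kept its rise in all 18 alternatives in which it was tested. The median of the 75 genes stayed below 0 and below the median of all genes in all 19 alternatives. Not all of these could have come out otherwise. The settings of variance moderation and the replicate block leave every difference as it was. Centring shifts all genes by the same amount, so it cannot change the gap to the median of all genes. As deposited, 6 of the 75 genes passed, 5 of them lower, beside 5 of their probe sets and 457 of all genes. After array median centring the counts were 32, 31, 33 and 1849, with medians of -0.26 for the family, -0.27 for the large and -0.25 for the small subunit. Quantile normalization gave 3 lower genes and medians of -0.079 and, for the large subunit, -0.080. Cyclic loess gave 3 lower genes, 3 probe sets and medians of -0.075 and -0.069. With every probe set tested, bright or dim, 3 genes were lower, 3 probe sets passed and 271 of all genes passed. Without a variance trend 1 gene of the family passed, 0 lower, with 0 probe sets and 82 of all genes. With the actin ratio, which did not overlap between the groups, 1 gene passed, 0 lower, with 2 probe sets. The medians were then -0.065, with -0.077 for the large and -0.037 for the small subunit. After removal of _x_at and _s_at probe sets, which left 42 genes of the family, 0 genes and 0 probe sets passed, 0 higher and 0 lower, with 298 of all genes and medians of -0.073 and, for the small subunit, -0.027. With each gene as the average over its probe sets 3 genes passed, 2 of them lower. Leaving out 1 array at a time gave 1 to 7 genes, 0 to 6 lower, 1 to 6 probe sets and 97 to 609 of all genes, the most without negative replicate 3 and the fewest of all genes without overexpression replicate 2. The median then ranged from -0.093 to -0.13, from -0.0997 to -0.13 for the large subunit and from -0.060 to -0.14 for the small subunit. Among all 75 genes, directions turned for 4 under quantile normalization, 3 under cyclic loess, 14 after centring, 13 with the actin ratio, 8 of 42 after removal of _x_at and _s_at probe sets, 9 with the average over probe sets and 2 to 5 without 1 array, none of them past the threshold in that setting. Of the 25 genes picked by the naming rule, directions turned for MRPL3 (0.0091 under quantile normalization, 0.0198 under cyclic loess), MRPL38 (-0.011 after centring), MRPL2 (0.0076 with the actin ratio, 0.0072 with the mean of probe sets), MRPL35 (0.0778 without _x_at and _s_at probe sets) and MRPL39 (0.227 there, 0.0236 with the mean of probe sets). The cause was not tested. Deviations from the group means of arrays with the same replicate number correlated at -0.0113, -0.0068 and 0.10, so the numbers were not taken to pair the samples. With the replicate number as a block, 6 genes and 7 probe sets of the family and 579 of all genes passed, and medians did not move. With moderation over probe sets, chosen after seeing the data, 5 genes passed and MRPL30 did not (adjusted p = 0.0503). The number of arrays limits what can be told apart at these small differences.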
